A study of Homo sapiens with 16 samples.

Results

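EGFR, ERBB2, ERBB3, IGF1R, MET and AXL encode 6 receptor kinases that carry growth factor signals across the cell membrane. H3K27ac and H3K9ac were examined at these genes in ovarian cancer cell lines that are sensitive or resistant to cisplatin (cPt). A peak was included where it overlapped the hg19 window of a gene, whose boundaries are rounded to 10 kb, or the 50 kb on either side of it. These windows were chr7:55080001-55280000 for EGFR, chr17:37840001-37890000 for ERBB2, chr12:56470001-56500000 for ERBB3, chr15:99190001-99510000 for IGF1R, chr7:116310001-116440000 for MET and chr19:41720001-41770000 for AXL. In all, 295 of the 179689 listed peaks were included, between 21 and 53 in each of 8 lists.

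The lists come from ChIP-seq of mononucleosomes released by MNase, with D. melanogaster mononucleosomes added as a spike-in. H3K27ac was profiled in A2780 cells and their cPt-treated, resistant derivative A2780cis, in CAOV4 cells and cPt-treated CAOV4cis cells, and in A2780 cells after 1 week of MBD3 knockdown with shMBD3.26 or shMBD3.232. H3K9ac was profiled in A2780 and A2780cis cells. Each of these 8 conditions is 1 library, so differences between conditions have no replicate check and were not tested. A2780 is a cPt-sensitive line from an endometrioid adenocarcinoma, and CAOV4cis cells are CAOV4 cells made resistant in culture. MBD3 is a subunit of the NuRD chromatin remodeling and deacetylase complex, and both shRNAs were expressed from an inducible vector in cells selected after lentiviral transduction. The reference for both shRNAs was the untransduced A2780 library, because cells with a control shRNA were not analysed here.

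Receptor tyrosine kinases bind a secreted ligand outside the cell, pair with a second receptor and phosphorylate tyrosines on each other, which recruits adaptors that start RAS-MAPK and PI3K-AKT signaling. EGFR, ERBB2 and ERBB3 belong to one family: EGFR binds EGF-like ligands, ERBB2 has no known ligand of its own and serves as the preferred partner, and ERBB3 binds neuregulins but has a weak kinase. IGF1R binds insulin-like growth factors, MET binds hepatocyte growth factor (HGF), and AXL binds GAS6. H3K27ac marks active promoters and enhancers, H3K9ac is found mainly at active promoters, and a run of closely spaced acetylated regions over a gene is typical of genes that define the identity of a cell.

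The starts of these genes differ in sequence, and each is shown here because the acetylation at gene starts is described below. The RefSeq promoter of GRCh38.p14, from 250 bases before to 50 bases after the start, was found for 5 of the 6 genes, and ERBB3 has no entry in the table. Its build differs from that of the peak lists, so no base of it was placed on a peak. Capitals mark GC boxes (GGGCGG, or CCGCCC on the other strand), the sequence bound by SP1, and the AP-1-like pattern TGANTCA, where N is any base. This pattern was searched on both strands. All 5 promoters are on the plus strand, at chr7:55018767-55019066 for EGFR, chr17:39687844-39688143 for ERBB2, chr15:98648289-98648588 for IGF1R, chr7:116671946-116672245 for MET and chr19:41218973-41219272 for AXL.
EGFR: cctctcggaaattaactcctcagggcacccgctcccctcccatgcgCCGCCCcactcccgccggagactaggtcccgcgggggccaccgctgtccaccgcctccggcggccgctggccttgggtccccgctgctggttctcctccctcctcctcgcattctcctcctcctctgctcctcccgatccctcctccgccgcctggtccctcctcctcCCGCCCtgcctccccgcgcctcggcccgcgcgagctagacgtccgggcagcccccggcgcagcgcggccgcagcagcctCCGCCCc
ERBB2: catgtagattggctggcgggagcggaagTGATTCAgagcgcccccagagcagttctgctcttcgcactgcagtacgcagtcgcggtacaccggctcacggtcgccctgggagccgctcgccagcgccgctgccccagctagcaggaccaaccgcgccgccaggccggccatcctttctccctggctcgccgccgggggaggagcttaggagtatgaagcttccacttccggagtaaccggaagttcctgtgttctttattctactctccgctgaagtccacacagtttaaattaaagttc
IGF1R: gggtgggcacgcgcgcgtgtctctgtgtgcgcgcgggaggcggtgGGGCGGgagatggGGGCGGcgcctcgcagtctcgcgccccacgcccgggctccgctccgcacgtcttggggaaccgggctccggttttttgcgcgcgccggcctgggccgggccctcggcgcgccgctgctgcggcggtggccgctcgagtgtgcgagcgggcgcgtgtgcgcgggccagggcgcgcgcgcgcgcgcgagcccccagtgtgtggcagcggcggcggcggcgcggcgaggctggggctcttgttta
MET: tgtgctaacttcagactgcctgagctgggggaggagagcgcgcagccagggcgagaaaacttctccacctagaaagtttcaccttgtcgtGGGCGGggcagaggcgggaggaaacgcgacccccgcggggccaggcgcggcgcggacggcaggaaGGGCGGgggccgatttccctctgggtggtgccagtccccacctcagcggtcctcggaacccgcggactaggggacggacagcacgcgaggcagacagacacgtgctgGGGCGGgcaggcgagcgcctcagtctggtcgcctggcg
AXL: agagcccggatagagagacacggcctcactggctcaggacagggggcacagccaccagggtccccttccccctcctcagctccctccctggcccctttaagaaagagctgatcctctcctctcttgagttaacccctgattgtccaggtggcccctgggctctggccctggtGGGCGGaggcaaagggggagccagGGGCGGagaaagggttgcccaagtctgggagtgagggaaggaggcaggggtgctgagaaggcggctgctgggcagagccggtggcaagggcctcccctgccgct

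The IGF1R promoter was the richest in G and C, with 79.7%, against 75.3% for EGFR, 69.3% for MET, 66.0% for AXL and 60.7% for ERBB2. The median of all 34943 RefSeq promoters was 58.7%. EGFR and MET each held 3 GC boxes, and IGF1R and AXL each held 2. At least 2 GC boxes were found in 26.7% of all promoters, and at least 1 in 44.9%. The printed ERBB2 promoter had none, and it was the single one of the 5 with a match to the AP-1-like pattern, TGATTCA. Such a match is held by 7.72% of all promoters. No further ERBB2 start was listed, so any other start of this gene was not searched. The printed AXL promoter was low in CpG: the ratio of observed to expected CpG was 0.216, against 0.850 to 1.19 in the other 4 promoters and a median of 0.577 over all promoters. A further listed AXL start had a ratio of 0.831, with 53.7% G and C and no GC box. A further listed EGFR start held 2 matches to the AP-1-like pattern, no GC box and 42.0% G and C. These matches describe letters in the window and not bound sites.

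As a group, the 6 windows held more acetylated length than the genome average in every list. Taken alone, EGFR and MET were below that average in every list, and IGF1R was below it in A2780cis for both marks. The length covered by peaks, summed over the 1380 kb of the 6 extended windows, was 140.8 kb for H3K27ac in A2780, 130.4 kb in A2780cis, 117.8 kb with shMBD3.26 and 107.4 kb with shMBD3.232. It was 293.8 kb in CAOV4 and 336.4 kb in CAOV4cis. The CAOV4 pair thus had the highest H3K27ac coverage of these genes, 21.3% and 24.4% of the windows, against 7.78% to 10.2% in the 4 A2780 lists. Over the genome, cut into 12880 tiles of 200 kb, the CAOV4 pair had 3.03% and 3.21% coverage and the 4 A2780 lists 3.05% to 3.83%. H3K9ac covered 88.6 kb in A2780 and 86.4 kb in A2780cis, or 6.42% and 6.26% of the windows, with 2.14% and 2.11% over the genome.

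Per length and with the flanks counted, ERBB3 was covered the most and MET the least. H3K27ac peaks covered 26.2% to 64.2% of the ERBB3 window across the 6 lists, 14.1% to 50.3% of the ERBB2 window, 7.20% to 23.1% of the AXL window and 3.24% to 37.6% of the IGF1R window. The EGFR window was covered to 0.533% to 2.87%, and the MET window to at most 0.522%. With flanks, ERBB3 was above every other gene in each of the 6 H3K27ac lists and in both H3K9ac lists. Over the gene window alone, ERBB3 stayed first in A2780cis (both marks), CAOV4 and CAOV4cis, but not in the other lists. There, H3K27ac in A2780 covered 30% of ERBB3 and 30.4% of AXL. With shMBD3.232 it covered 15.3% of ERBB3, 24.8% of ERBB2 and 22% of AXL. The flanks of ERBB2, ERBB3 and AXL hold closely packed neighboring genes, and the peaks there cannot be assigned to the receptor from position alone. Because the gene windows are rounded to 10 kb, the same holds for peaks at or near a window edge.

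**Figure D1:**
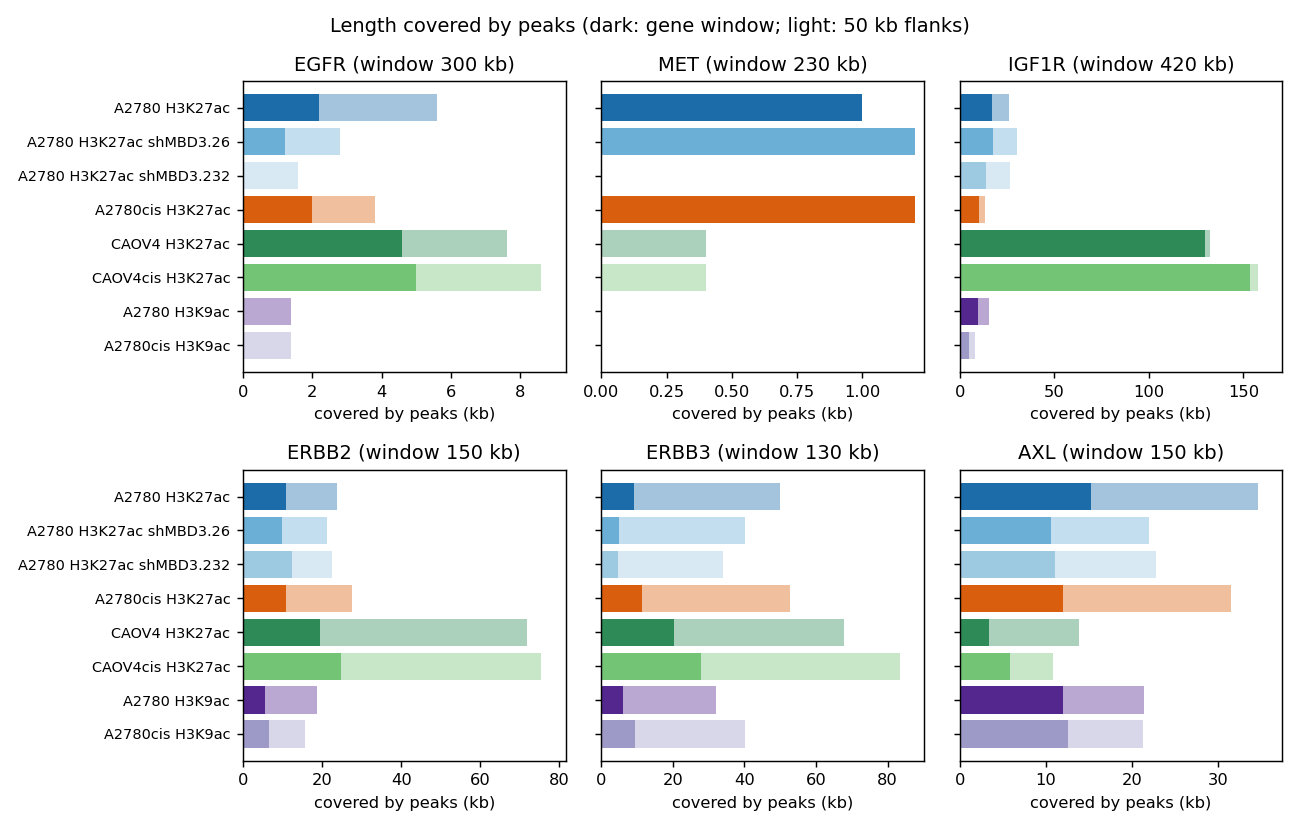
Length covered by listed peaks (kb, linear axis starting at 0, with its own scale in each panel) for the 6 receptor genes in the 8 libraries, 1 library per bar and no error bar. Dark bars are the gene window and light bars the 50 kb flanks. IGF1R and ERBB2 are covered most in CAOV4 and CAOV4cis, and AXL most in A2780.

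The labels call all cells epithelial ovarian cancer, and the markers of that identity were split between the lines. Of 7 epithelial or ovarian markers (EPCAM, CDH1, KRT8, KRT18, PAX8, WT1, MUC16), 5 had an H3K27ac peak over the gene in CAOV4 and in CAOV4cis, with a summed 63.8 kb and 72.6 kb. In the 4 A2780 lists, 0 to 2 had a peak, with 0 to 5.0 kb in sum. CDH1, which encodes E-cadherin, had 36.8 kb in CAOV4 and 43.6 kb in CAOV4cis, against 1.8 kb in A2780 and 0 in A2780cis. EPCAM, KRT8 and WT1 had no peak over the gene in any A2780 list, and PAX8 and MUC16 had none in the CAOV4 lists. The endothelial marker PECAM1 and the stromal marker PDGFRB had 0 to 4.6 kb in sum. These differences between the lines move with the gene differences between A2780 and CAOV4 given below, and their part in them was not tested.

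IGF1R had the largest difference between the cell lines. H3K27ac peaks covered 25.8 kb at IGF1R in A2780, 13.6 kb in A2780cis, 30.4 kb with shMBD3.26, 26.4 kb with shMBD3.232, 132.4 kb in CAOV4 and 157.8 kb in CAOV4cis. Both CAOV4 lists lay far above the 4 A2780 lists, and within the latter A2780cis was the lowest. The number of peaks was 5 to 10 in the A2780 lists, 19 in CAOV4 and 21 in CAOV4cis. Within the gene itself, acetylation covered 40.6% in CAOV4 and 48% in CAOV4cis, but 5.25% in A2780 and 3.19% in A2780cis.

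In the A2780 lists, IGF1R acetylation consisted of separate peaks with long unmarked stretches between them. A peak at the 5′ end began 0.2 to 0.6 kb inside the window in each of the 4 lists and was 3.8 kb wide in A2780, 3.6 kb in A2780cis and 4.0 kb with shMBD3.26. With shMBD3.232, it was split into peaks of 2.2 and 0.6 kb. Between this start and a position 100 kb into the gene, none of the 4 lists held a peak. A group of peaks followed in the middle of the gene, of which the widest was 7.0 kb in A2780 and 3.8 kb in A2780cis, both starting 204.4 kb into the window. The widest peak of A2780 lay downstream of the gene, at chr15:99555601-99564000, and was 8.4 kb wide. The H3K9ac lists had no peak over the first 20 kb of IGF1R, in either A2780 or A2780cis.

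In CAOV4 and CAOV4cis, the same gene carried broad domains over its first part and its middle. The peak at chr15:99393601-99424800 in CAOV4 and that at chr15:99383601-99414800 in CAOV4cis were each 31.2 kb wide, and both overlapped the middle group of A2780. Between 58 and 135 kb into the window, where each A2780 H3K27ac list had at most 1 peak, of 0.8 to 1.2 kb, CAOV4cis held peaks of 29.2, 26.4, 10.8 and 3.0 kb. Neighboring peaks separated by up to 12.5 kb were joined to clusters, and the clusters of a list were ordered by the length their peaks covered. The largest IGF1R cluster ranked 117 of 12992 in CAOV4, with 59.0 kb covered over a span of 75.2 kb (chr15:99249601-99324800), and 94 of 13270 in CAOV4cis, with 71.0 kb over 97.0 kb. In A2780 the largest cluster over the gene ranked 1840 of 14153, with 12.2 kb covered, and in A2780cis 4019 of 12915, with 5.8 kb.

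**Figure D2:**
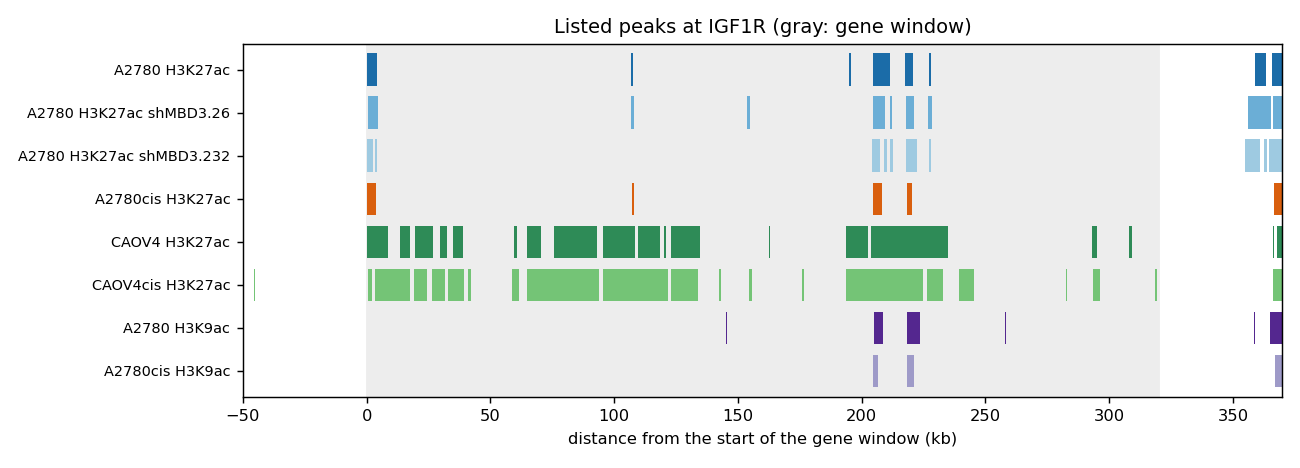
Position of every listed peak at IGF1R in the 8 libraries, as distance from the start of the gene window (kb, linear axis). Each bar is 1 peak at its full width and the gray area is the 320 kb gene window. In CAOV4 and CAOV4cis, broad domains fill the first 45 kb and the stretch from 58 to 135 kb, where the A2780 lists have few and narrow peaks, and the stretch around 204 kb, where the A2780 lists have a group of separate peaks.

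ERBB2, the partner receptor of the family, had wider acetylation in CAOV4 than in the A2780 lists. H3K27ac peaks covered 23.8 kb in A2780, 27.6 kb in A2780cis, 21.2 kb with shMBD3.26, 22.6 kb with shMBD3.232, 71.8 kb in CAOV4 and 75.4 kb in CAOV4cis. The 4 A2780 lists lay close together, and both CAOV4 lists lay above them. Most of the difference was outside the gene: the upstream 50 kb had 35.2 kb and 34.4 kb in CAOV4 and CAOV4cis, and 4.6 to 10.4 kb in the A2780 lists. Over the gene window, the CAOV4 lists had 19.6 and 24.8 kb and the A2780 lists 9.8 to 12.4 kb.

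ERBB2 had a peak over its first 20 kb in all 6 H3K27ac lists and in both H3K9ac lists. In A2780, the first such peak began 3.2 kb into the window and was 2.2 kb wide, and a second one, 6.0 kb wide, began at 15.6 kb. Position alone assigns neither peak to a start of ERBB2. In CAOV4cis the corresponding peaks were 8.4 and 10.2 kb wide. The widest ERBB2 peak was 7.6 kb in A2780 (chr17:37905201-37912800, downstream), 19.2 kb in CAOV4 (chr17:37779401-37798600, at the upstream edge) and 18.4 kb in CAOV4cis (chr17:37817401-37835800, upstream). The largest cluster touching the ERBB2 window ranked 97 of 12992 in CAOV4 with 63.8 kb covered, and 102 of 13270 in CAOV4cis with 69.0 kb. It ranked 2208 of 14153 in A2780 and 2861 of 12915 in A2780cis. The CAOV4 and CAOV4cis clusters (chr17:37773401-37864200 and chr17:37772401-37866800) began beyond the upstream 50 kb flank. Most of their covered length lay upstream of the gene window and cannot be assigned to ERBB2 from position alone.

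ERBB3, the neuregulin receptor, had long H3K27ac coverage in every list once its flanks were counted. H3K27ac peaks covered 50 kb in A2780, 52.8 kb in A2780cis, 40.2 kb with shMBD3.26, 34.0 kb with shMBD3.232, 67.8 kb in CAOV4 and 83.4 kb in CAOV4cis. The order was thus the CAOV4 lists, A2780 with A2780cis, and then the lists of both shRNAs. Most of the A2780 coverage, 31.2 kb, was downstream of the gene, in a gene-dense stretch. Over the 30 kb of the gene window, peaks covered 30.0% in A2780, 38% in A2780cis, 67.3% in CAOV4 and 92.7% in CAOV4cis. With shMBD3.26 and shMBD3.232 they covered 16% and 15.3%. The widest CAOV4cis peak, chr12:56464801-56488600, was 23.8 kb wide and spanned the 5′ end, where A2780 had a peak of 5.0 kb and the shRNA lists peaks of 1.8 and 2.0 kb. The largest cluster touching the ERBB3 window ranked 81 of 13270 in CAOV4cis and 206 of 12992 in CAOV4, where it covered the 5′ end. It ranked 285 of 12915 in A2780cis, 333 of 14153 in A2780, 590 of 14043 with shMBD3.26 and 771 of 11400 with shMBD3.232. In these A2780 lists the cluster began near the downstream end of the gene window and ran into the downstream flank, so it did not include the 5′ end.

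AXL, the GAS6 receptor, had the opposite order of the cell lines. H3K27ac peaks covered 34.6 kb in A2780, 31.4 kb in A2780cis, 22 kb with shMBD3.26, 22.8 kb with shMBD3.232, 13.8 kb in CAOV4 and 10.8 kb in CAOV4cis. Both CAOV4 lists lay below all 4 A2780 lists. The difference held over the gene window, with 15.2 kb in A2780 and 12 kb in A2780cis against 3.4 kb in CAOV4 and 5.8 kb in CAOV4cis. In all of these but CAOV4, part of the length came from a peak that crosses the downstream end of the window. Over the first 20 kb alone, the lengths were 11.8, 9.0, 3.4 and 2.8 kb in the same order. In A2780, a pair of peaks of 6.4 and 5.4 kb lay over the first 20 kb of the window, and both were present in A2780cis and with both shRNAs. CAOV4 and CAOV4cis had only the first of the pair, 3.4 and 2.8 kb wide. The largest AXL cluster ranked 1059 of 14153 in A2780 with 18.4 kb covered, and 5635 of 12992 in CAOV4 with 3.4 kb. Both of these lay at the 5′ end. The largest clusters of the resistant lines lay elsewhere, both starting at chr19:41767001, near the downstream end of the window. They ranked 2308 of 12915 with 9.6 kb in A2780cis and 2586 of 13270 with 7.6 kb in CAOV4cis.

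**Figure D3:**
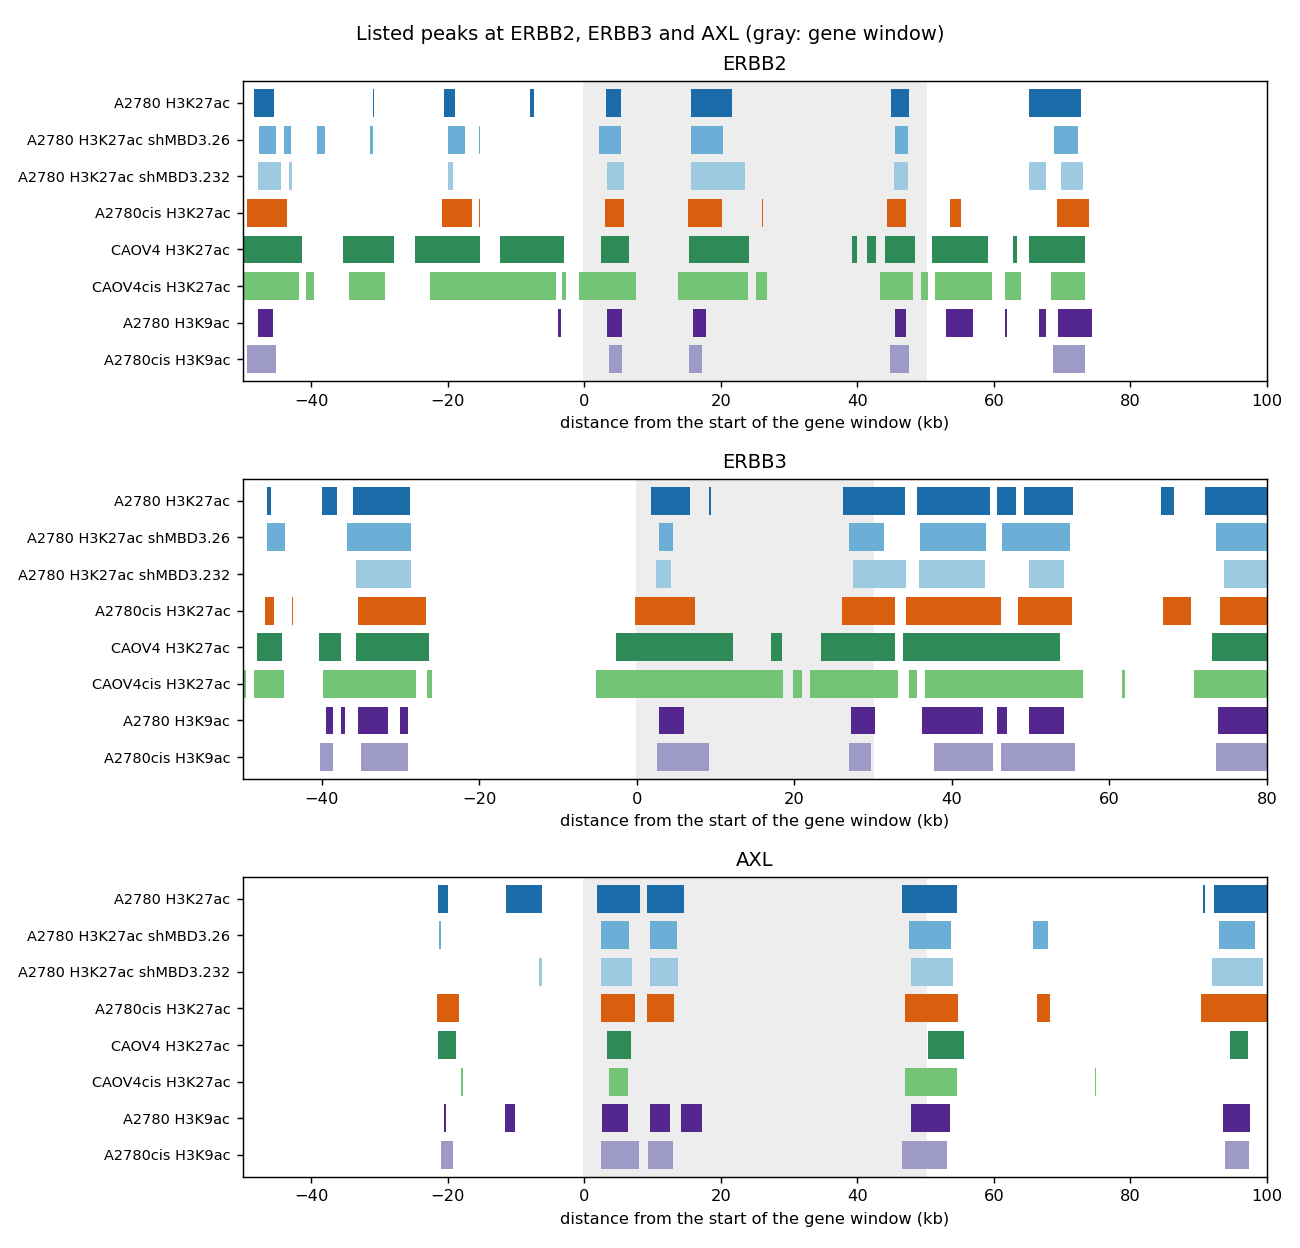
Position of every listed peak at ERBB2, ERBB3 and AXL in the 8 libraries, as distance from the start of each gene window (kb, linear axis). Each bar is 1 peak and the gray area is the gene window. At AXL, the second peak of the pair at the 5′ end is present in the A2780 lists and absent from both CAOV4 lists, while ERBB2 and ERBB3 have wider peaks in the CAOV4 lists.

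EGFR had little acetylation in any line. H3K27ac peaks covered 5.6 kb in A2780, 3.8 kb in A2780cis, 2.8 kb with shMBD3.26, 1.6 kb with shMBD3.232, 7.6 kb in CAOV4 and 8.6 kb in CAOV4cis. The peak at the 5′ end was 1.2 kb wide in A2780, with shMBD3.26 and in CAOV4 and 2.0 kb in A2780cis, and it was not listed with shMBD3.232 or in CAOV4cis. CAOV4 instead had its widest peak inside the gene, chr7:55244001-55247400, of 3.4 kb. CAOV4cis had a peak of 3.2 kb at nearly the same place, and no A2780 list had one there. A peak about 242 kb into the window, downstream of EGFR, was present in all 8 lists and was the only EGFR peak in the H3K9ac lists and with shMBD3.232.

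MET, the HGF receptor, was the least covered gene. In A2780, its single H3K27ac peak (chr7:116311801-116312800) was 1.0 kb wide and lay at the 5′ end. The same place had a peak of 1.2 kb in A2780cis and of 1.2 kb with shMBD3.26, and no peak with shMBD3.232. CAOV4 and CAOV4cis each had 1 peak of 0.4 kb, both in the upstream flank, at different positions and none over the gene. Neither H3K9ac list had a peak in the MET window. The absence of a peak says that the peak caller listed none there, not that no acetylated nucleosome was present.

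**Figure D4:**
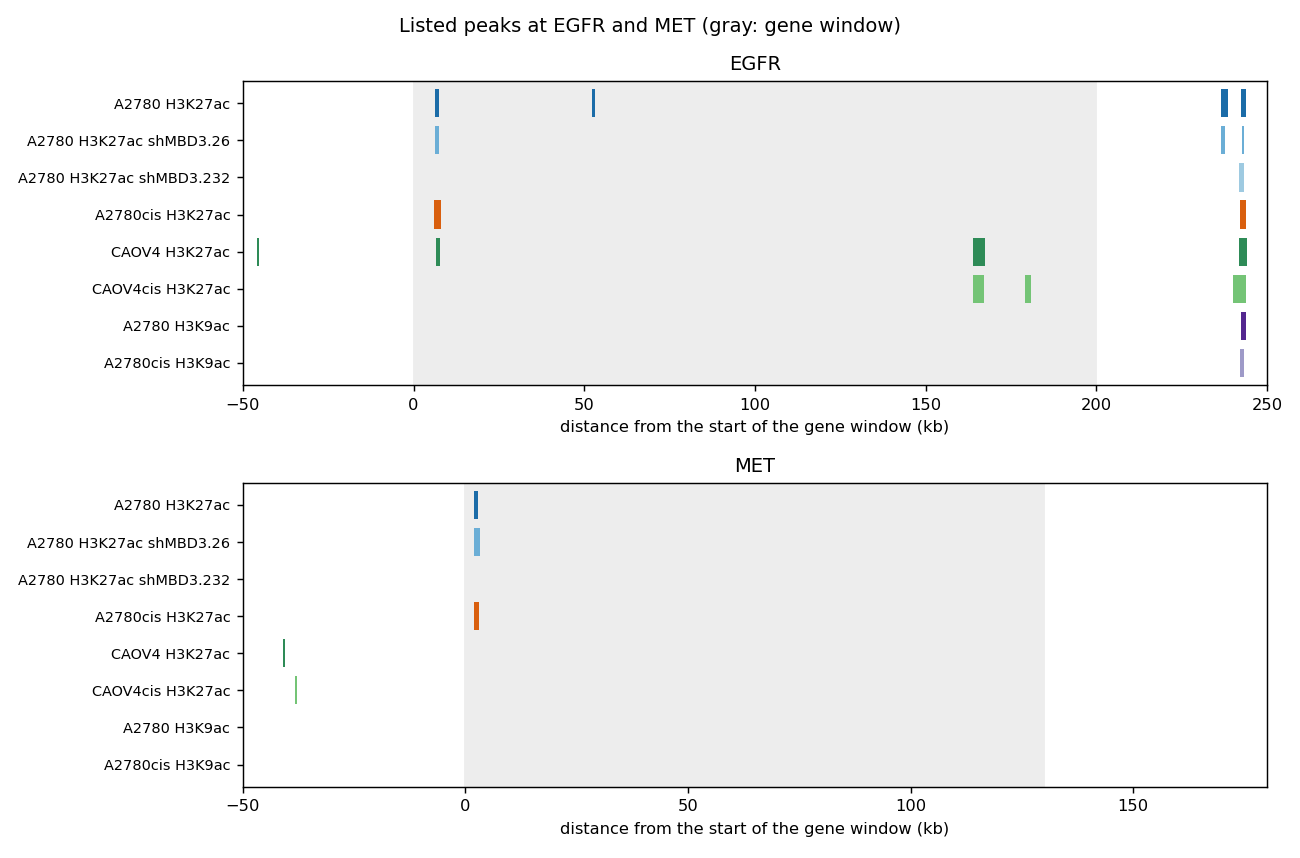
Position of every listed peak at EGFR and MET in the 8 libraries, as distance from the start of each gene window (kb, linear axis). Each bar is 1 peak and the gray area is the gene window. The peak at the 5′ end of EGFR is listed in 4 of 6 H3K27ac libraries and that of MET in 3 of 6, and neither has an H3K9ac peak there.

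The genes fell into a group with H3K9ac at the 5′ end and a group without it. ERBB2, ERBB3 and AXL had an H3K9ac peak over the first 20 kb in both A2780 and A2780cis, and EGFR, MET and IGF1R in neither. All 6 had an H3K27ac peak there in A2780 and in A2780cis. Of the 39 H3K27ac peaks at the 6 genes in A2780, 24 (61.5%, 95% Wilson interval 45.9% to 75.1%, for counting error only) overlapped an H3K9ac peak, against 45.0% of all H3K27ac peaks of that list. In A2780cis these were 20 of 32 (62.5%, 45.3% to 77.1%), against 52.9% of all. By length, 52.6% of the H3K27ac coverage in A2780 and 59.0% in A2780cis lay under H3K9ac. Conversely, 83.5% and 89.1% of the H3K9ac coverage lay under H3K27ac. In kb, ERBB3 had the longest overlap, with 31.4 of its 32.0 kb of H3K9ac in A2780 and 33.8 of 40.2 kb in A2780cis lying under H3K27ac.

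To compare sensitive with resistant A2780 cells, a gene was called where the larger of both covered lengths was at least 5 kb and at least 2-fold the smaller. MET stayed under 5 kb in every list and could not be called in any comparison. None of the 5 other genes was called for H3K27ac in A2780cis against A2780. By the same rule, 11.6% of the 200 kb tiles of the genome were called higher in A2780cis and 15.8% lower. IGF1R came nearest, with 25.8 kb in A2780 and 13.6 kb in A2780cis, 1.90-fold lower in the resistant line. Counted over the gene without its flanks, the lengths were 16.8 and 10.2 kb, a 1.65-fold difference. The A2780cis peaks lay almost entirely where A2780 had peaks: 98.5% of the A2780cis coverage at IGF1R was shared, and 51.9% of that of A2780. The other genes differed by 1.06-fold at ERBB3 to 1.47-fold at EGFR. The median log2 ratio (with 1 kb added to each length) was −0.14 over the 5 genes and −0.02 over the tiles.

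Most of the peaks at these genes were common to sensitive and resistant A2780 cells. H3K27ac peaks of both lists that shared at least 1 bp formed 42 regions, of which 27 were common, 10 were listed only in A2780 and 5 only in A2780cis. The A2780-only share was 23.8% (13.5% to 38.5%), beside 38.1% of the regions of the whole lists, and the A2780cis-only share was 11.9% (5.19% to 25.0%), beside 17.9%. The regions of 1 list were narrow, with a median width of 1.0 kb against 5.8 kb for common ones. The widest was an A2780-only peak of 5.2 kb that began 11.4 kb upstream of the AXL window, singled out after its values were seen. A2780cis and shMBD3.26 had no peak at that place, and shMBD3.232 had 1 of 0.4 kb.

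H3K9ac gave a like picture in these lines. IGF1R was covered over 15.2 kb in A2780 and 8.0 kb in A2780cis, again 1.90-fold lower in the resistant line, with 90.0% of the A2780cis length shared. Counted over the gene without its flanks, the lengths were 9.8 and 4.8 kb, a 2.04-fold difference. ERBB3 had the longer coverage in the resistant line, with 32.0 kb in A2780 and 40.2 kb in A2780cis. ERBB2 had 18.6 and 15.6 kb, AXL 21.4 and 21.2 kb, and EGFR 1.4 kb in both. None of the 4 genes with at least 5 kb was called, while 15.3% of tiles were called higher in A2780cis and 18.8% lower. Of 33 regions at these genes, 21 were common, 12 (36.4%, 22.2% to 53.4%) were found only in A2780 and 0 only in A2780cis, which allows a share of up to 10.4%. Over the whole lists these shares were 46.0% and 21.7%.

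The question whether the other resistant line showed the same differences was addressed with CAOV4cis and CAOV4. None of the 5 genes was called, beside 12.7% of tiles higher in CAOV4cis and 10.7% lower. IGF1R was covered over 132.4 kb in CAOV4 and 157.8 kb in CAOV4cis, 25.4 kb more at a ratio of 1.19, whereas it had 12.2 kb less in A2780cis than in A2780. The CAOV4 pair shared 121.4 kb of IGF1R acetylation, 91.7% of the length in CAOV4 and 76.9% of that in CAOV4cis. ERBB3 had 15.6 kb more in CAOV4cis, a ratio of 1.23, and ERBB2 3.6 kb more. AXL had 3.0 kb less. The median log2 ratio was 0.16 over the 5 genes and 0.13 over the tiles. Of 56 regions, 29 were common, 9 (16.1%, 8.69% to 27.8%) were found only in CAOV4 and 18 (32.1%, 21.4% to 45.2%) only in CAOV4cis, with 29.1% and 33.8% over the whole lists. Of the 18, 8 were at IGF1R.

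Knockdown of MBD3 was compared with untransduced A2780 for each shRNA, so that both comparisons share the A2780 library. EGFR was the 1 gene called, and it was lower with both shRNAs: 5.6 kb in A2780, 2.8 kb with shMBD3.26 (2-fold) and 1.6 kb with shMBD3.232 (3.50-fold). Both lengths rest on 3 peaks at most, and with shMBD3.26 the ratio lies exactly at the threshold. The gene was no longer called with either shRNA without flanks or with peaks over 2 kb only. With shMBD3.26 this was also so for flanks of 100 kb and for lengths scaled by the list total, and with shMBD3.232 when equally many of the widest peaks were taken per list. Of all tiles, 2.43% were called higher and 10.4% lower with shMBD3.26, and 1.58% higher and 13.8% lower with shMBD3.232. The median tile shifted by −0.31 on the log2 scale in each of these comparisons, so that genes with a like shift follow the lists as a whole. The median over the 5 genes was −0.31 with shMBD3.26 and −0.54 with shMBD3.232.

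AXL and ERBB3 were also covered over a shorter length with both shRNAs, without reaching 2-fold, although ERBB3 with shMBD3.26 was at 0.51 kb more once lengths were scaled by the list total. AXL had 12.6 kb less with shMBD3.26 (1.57-fold) and 11.8 kb less with shMBD3.232 (1.52-fold). ERBB3 had 9.8 kb less (1.24-fold) and 16 kb less (1.47-fold). Over the rounded ERBB3 gene window, the lengths were 9.0 kb in A2780, 4.8 kb with shMBD3.26 and 4.6 kb with shMBD3.232. Part of each length came from a peak that crosses the downstream end of the window. Over the first 20 kb alone, the lengths were 5.2, 1.8 and 2.0 kb. IGF1R had 4.6 kb and 0.6 kb more, and the latter was 2.8 kb less without flanks. ERBB2 had 2.6 kb and 1.2 kb less, but 2.57 kb and 3.50 kb more with that scaling. With shMBD3.26, 46 regions split into 29 common, 9 A2780-only (19.6%, 10.7% to 33.2%) and 8 knockdown-only (17.4%, 9.09% to 30.7%), with 34.0% and 18.0% over the whole lists. With shMBD3.232, 41 regions split into 24 common, 15 A2780-only (36.6%, 23.6% to 51.9%) and 2 knockdown-only (4.88%, 1.35% to 16.1%), with 40.1% and 10.9% over the whole lists.

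More of the receptor genes were called between the cell lines than within either of them, and the same was true of the tiles of the genome. In CAOV4 against A2780, IGF1R (5.13-fold) and ERBB2 (3.02-fold) were called higher and AXL (2.51-fold) lower, 3 of 5 genes. Of all tiles, 24.3% were called higher in CAOV4 and 39.8% lower, so calls were frequent in this comparison. In CAOV4cis against A2780cis, IGF1R (11.6-fold), ERBB2 (2.73-fold) and EGFR (2.26-fold) were called higher and AXL (2.91-fold) lower, beside 27.9% and 35.4% of tiles. ERBB3 was 1.36-fold and 1.58-fold higher in the CAOV4 lines and was not called with its flanks. Over the gene window alone, its difference was 2.24-fold and 2.44-fold, while that of ERBB2 in CAOV4 against A2780 was 1.81-fold and no longer called. AXL in that comparison was not called once lengths were scaled by the list total. The median tile shifted by −0.46 and −0.22 on the log2 scale, and the median over the 5 genes was 0.43 and 1.00.

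At ERBB2, the A2780 peaks lay within the longer coverage of CAOV4. All 23.8 kb covered at ERBB2 in A2780 were also covered in CAOV4, where they made up 33.1% of the length. At IGF1R, 75.2% of the A2780 length was covered in CAOV4 and made up 14.7% of it. At AXL the relation was turned around, with 33.5% of the A2780 length covered in CAOV4 and 84.1% of the CAOV4 length covered in A2780. By regions, 54 split into 25 common, 8 A2780-only (14.8%, 7.70% to 26.6%) and 21 CAOV4-only (38.9%, 27% to 52.2%), with 44.3% and 31.2% over the whole lists. Between the resistant lines, 59 regions split into 21 common, 8 A2780cis-only (13.6%, 7.03% to 24.5%) and 30 CAOV4cis-only (50.8%, 38.4% to 63.2%), with 32.2% and 41.6% over the whole lists.

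Regions shared by every line were counted over the 6 H3K27ac lists together. Of 65 merged regions at the 6 genes, 16 (24.6%, 15.8% to 36.3%) had a peak in all 6 lists, beside 12.3% of the 53507 regions of the whole lists. ERBB2 held 6 of the 16, ERBB3 4, IGF1R 3, AXL 2 and EGFR 1, and MET none. Of the 16, 9 touched a gene window, with 3 at ERBB2, 2 each at ERBB3, IGF1R and AXL and 0 at EGFR. The rest lay in the flanks alone. A further 30 regions were found only in CAOV4 or CAOV4cis, of which 15 were at IGF1R, and such regions made up 32.9% of the whole lists. By contrast, 10 regions were found only in A2780 lists, of which AXL held 3, beside 43.3% of the whole lists.

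The other genes of these pathways showed which ligands and regulators were acetylated beside the receptors. Lists of 7 other receptors, 11 ligands and 8 adaptors or regulators were measured in windows of the same kind, and ERBB4 and IRS1 lie beyond the last listed peak of their chromosome and were not assessed. In A2780cis against A2780, 0 of the 14 genes with at least 5 kb were called higher for H3K27ac and 3 lower, beside 11.6% and 15.8% of tiles. These were the receptor PDGFRA (6.2 and 2.0 kb in A2780 and A2780cis), the AXL ligand GAS6 (7.6 and 2.6 kb) and ERRFI1, a feedback inhibitor of EGFR (12.8 and 5.8 kb). For H3K9ac, 1 of 12 was called higher, the AXL relative MERTK (9.4 and 20.6 kb), and 2 lower, the MET ligand HGF (69.4 and 16.4 kb) and GAS6 (7.8 kb and no peak), beside 15.3% and 18.8% of tiles. In CAOV4cis against CAOV4, INSR (3.0 and 6.8 kb) and the adaptor GAB1 (9.0 and 18.4 kb) were called higher, and MST1R, a relative of MET (12.8 and 3.6 kb), and IGF2 (9.0 and 1.4 kb) lower, 4 of 14 genes, beside 12.7% and 10.7% of tiles. All of the IGF2 length lay in the flanks.

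HGF was the most widely acetylated ligand in A2780 and nearly bare in CAOV4. Its H3K27ac coverage was 124.0 kb in A2780, 75.6 kb in A2780cis, 122.0 kb with each shRNA, 0 in CAOV4 and 1.6 kb in CAOV4cis. The lines that carry this acetylation at HGF are the A2780 lines, in which the gene of its receptor, MET, had at most 1.2 kb. GAS6 was higher in the CAOV4 lines, with 25.0 kb in CAOV4 and 26.4 kb in CAOV4cis against 2.6 to 7.6 kb in the A2780 lists, opposite to the order of its receptor AXL. No peak was listed at EGF, NRG1, IGF1 or BTC for H3K27ac in any library.

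With MBD3 knockdown by shMBD3.26, PDGFRA was called higher (6.2 and 13.2 kb) and SOS1, an activator of RAS, lower (14.2 and 7.0 kb), 2 of 14 genes, beside 2.43% of tiles higher and 10.4% lower. With shMBD3.232, MERTK (19.2 and 9.2 kb) and HBEGF, an EGFR ligand (14.4 and 6.8 kb), were called lower, 2 of 14, beside 1.58% of tiles higher and 13.8% lower. Over the gene alone, HBEGF had 1.6 and 1.2 kb, so most of its difference lay in the flanks, while MERTK had 7.2 and 2.2 kb. No gene of these 3 pathway lists was called with both shRNAs. Between CAOV4 and A2780, 5 of 17 genes were called higher and 5 lower, beside 24.3% and 39.8% of tiles. The ligands TGFA, IGF2 and GAS6 and the receptor inhibitors ERRFI1 and LRIG1 were higher, and INSR, MERTK, PDGFRA, HGF and SOS1 were lower. The IGF2 length again lay in the flanks. Between CAOV4cis and A2780cis, TGFA, GAS6, GAB1, ERRFI1 and LRIG1 were called higher and INSR, MERTK, MST1R, HGF and SOS1 lower, 10 of 15 genes, beside 27.9% and 35.4% of tiles. The MST1R call came from its flanks. Over the gene alone, MST1R had 3.2 kb in CAOV4cis and 1.8 kb in A2780cis, the opposite order. LRIG1, which promotes the degradation of ERBB receptors, had 15 and 29.2 kb in CAOV4 and CAOV4cis and at most 1.6 kb in the A2780 lists.

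**Figure D5:**
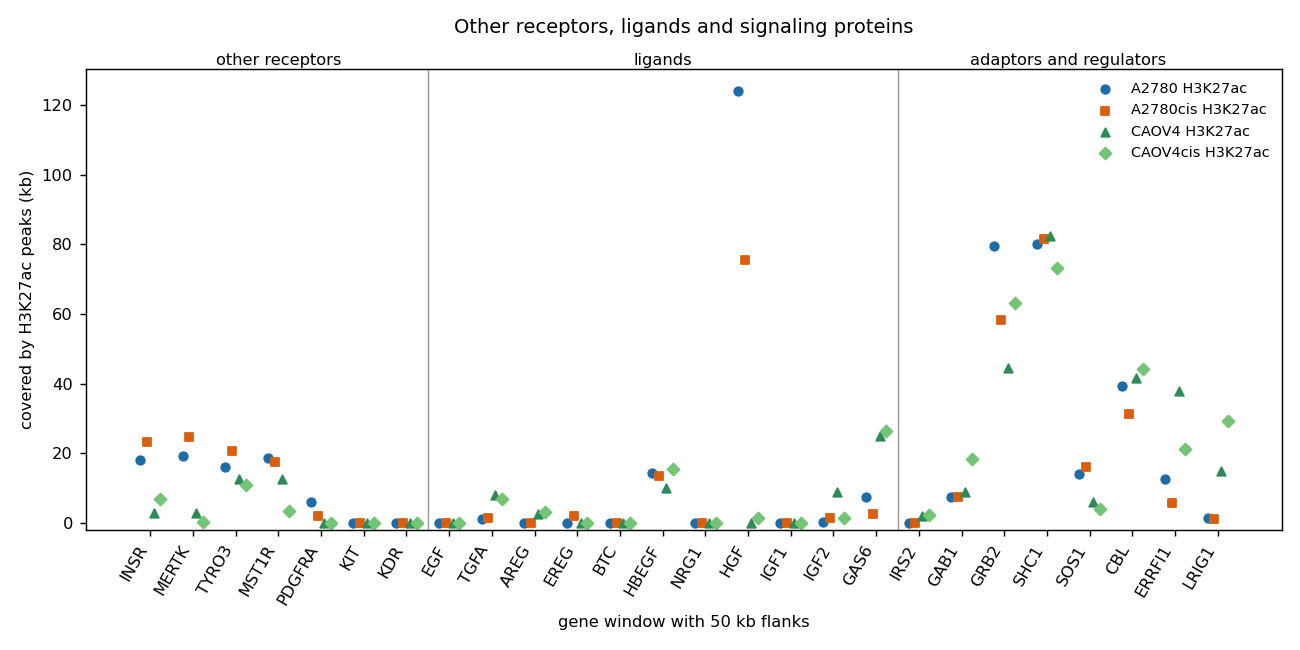
Length covered by H3K27ac peaks (kb, linear axis) in the extended windows of 7 other receptors, 11 ligands and 8 adaptors or regulators, with 1 point per library for A2780, A2780cis, CAOV4 and CAOV4cis and no error bar. HGF is covered over 124.0 kb in A2780 and 75.6 kb in A2780cis and is at or near 0 in the CAOV4 lines.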

How the data were processed

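Mononucleosomes were immunoprecipitated for H3K27ac or H3K9ac, and the authors used Bowtie2 for alignment, a quantile normalization and MACS2 for peak calling, per their methods and the labels, which name hg19. The deposited lists hold 1 row per peak, with its start and end and a score that is 0 in every row, so signal strength and read depth are unknown. All boundaries but 1 lie on a 200 bp grid. The lists hold 15365 to 28662 peaks, none on chromosomes 20 to 22, and on chromosomes 1 to 12 they end before the chromosome does, but all 6 genes lie within the listed range. The 6 peaks off the standard chromosomes were left out. Covered length was computed with peaks clipped at the extended windows, while widths are those of whole peaks. The members and gene lists were chosen with earlier results of these data known, and the 2 comparisons between cell lines were added after seeing the data. Windows of the pathway and marker genes are rounded hg19 positions from general knowledge, since no annotation of that build was used. Pathway genes are named where they passed the 2-fold rule in a comparison, and peaks where they are the widest or lie in the first 20 kb. Analyses used Python 3.11.15, numpy 2.4.6, pandas 2.3.3, SciPy 1.17.1 and matplotlib 3.10.9. Alternatives were the flank, the fold, peak width, merging distance, scaling by list total and equal numbers of peaks.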

Additional observations from a re-analysis of the deposited data

Results flagged for a closer look

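At IGF1R, the H3K27ac length differed in opposite directions in the resistant lines, by −12.2 kb in A2780cis against A2780 and by 25.4 kb in CAOV4cis against CAOV4. EGFR did so on a small scale, with −1.8 kb and 1.0 kb. At MET, the difference from A2780 was 0.2 kb with shMBD3.26 and −1.0 kb with shMBD3.232, where no peak was listed. With 1 library per condition, these differences between comparisons were not tested.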

How the results depend on the processing

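No paired analysis was possible because each condition is 1 library and the labels give no replicate numbers; leaving out a library would leave no comparison. No called gene changed direction under the alternatives tried. Among differences that were not called, the sign changed under at least 1 alternative for ERBB3 (−0.8 to 5.8 kb) and AXL (−3.2 to 3.4 kb) in A2780cis against A2780, for ERBB2 (−3.4 to 1.0 kb) and AXL (−0.2 to 3.0 kb) with H3K9ac, and for ERBB2 (−0.58 to 5.2 kb) and AXL (−9.8 to 2.4 kb) in CAOV4cis against CAOV4. It also changed for ERBB2 (−4.8 to 2.57 kb) and ERBB3 (−12.2 to 0.51 kb) with shMBD3.26 and for IGF1R (−2.8 to 5.91 kb) and ERBB2 (−3.6 to 3.50 kb) with shMBD3.232. For A2780cis against A2780, H3K27ac, the count of called genes went from 0 to 1, IGF1R, with peaks over 2 kb and with a 1.5-fold rule. For H3K9ac it went from 0 to 1, again IGF1R, without flanks, with flanks of 100 kb, with peaks over 2 kb and with a 1.5-fold rule. With shMBD3.26 the count went from 1 to 0 without flanks, with flanks of 100 kb, with peaks over 2 kb and with scaling by list total, and to 2 (EGFR and AXL) with a 1.5-fold rule. With shMBD3.232 it went from 1 to 0 without flanks, with peaks over 2 kb and with equal numbers of widest peaks, and to 2 (EGFR and AXL) with a 1.5-fold rule. The counts of called genes in the 3 other comparisons stayed within 1.5 times under these alternatives, but genes changed places. In CAOV4 against A2780, AXL was no longer called with scaling by list total, ERBB3 was called in place of ERBB2 without flanks, and EGFR was added with peaks over 2 kb. In CAOV4cis against A2780cis, ERBB3 was added without flanks and with a 1.5-fold rule, and MET was called in place of EGFR with flanks of 100 kb.

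Regions found in 1 list were fewer under most alternatives. For A2780cis against A2780, H3K27ac, 15 became 8 when peaks within 5 kb were merged, 2 when only regions over 2 kb were looked up in the full lists, and 5 without flanks. For H3K9ac, 12 became 7, 2 and 5 under these alternatives, and 6 with equal numbers of widest peaks. For CAOV4cis against CAOV4, 27 became 13, 3 and 16, and with shMBD3.26, 17 became 7, 2 and 6. With shMBD3.232, 17 became 9, 1 and 7, and 8 with equal numbers of widest peaks. For CAOV4 against A2780, 29 became 10 when merged and 14 over 2 kb, and for CAOV4cis against A2780cis, 38 became 17, 16 and 22. The counts of called pathway genes ranged from 0 to 4 for A2780cis against A2780 (H3K27ac), from 3 to 5 for H3K9ac, from 2 to 8 for CAOV4cis against CAOV4, from 1 to 6 with shMBD3.26 and from 0 to 7 with shMBD3.232, against 3, 3, 4, 2 and 2 as reported, over alternatives added after seeing the data. Read depth is not in the lists and limits the precision of each peak by an unknown amount.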
